A study of Mus musculus with 15 samples.

Results

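The nuclear-encoded subunits of respiratory complexes II, III, IV and V were followed in the liver of female mice. Members were all protein-coding genes of the deposited count table whose symbol was Sdha, Sdhb, Sdhc, Sdhd or Cyc1 or began with Uqcr, Cox4, Cox5, Cox6, Cox7, Cox8 or Atp5, without the inhibitor Atp5if1 and without names ending in -ps. This gave 49 gene IDs of 55450, of which 4 belonged to complex II, 9 to complex III, 18 to complex IV and 18 to complex V. The 49 IDs carry 48 symbols, because Atp5o is listed under a second ID that had 0 counts in every mouse. A further 8 pseudogene entries of these name families were left out. The rule uses names and gene type and no expression value, but it was set with earlier results of these data known. Because it follows names, a member need not be a structural subunit. Subunits with other names are absent, and Usmg5, which RefSeq names Atp5md, was left out in this way.

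Complex II oxidizes succinate to fumarate and passes the electrons to ubiquinone. Complex III carries them on to cytochrome c, complex IV hands them to oxygen, and complex V, the ATP synthase, uses the proton gradient built by complexes III and IV, together with complex I, to make ATP. Complex II is encoded wholly in the nucleus, whereas complexes III, IV and V also contain subunits encoded by mitochondrial DNA, which were not analysed here. Hepatocytes are rich in mitochondria, and several complex IV subunits exist as tissue-specific isoforms of which the liver uses the widely expressed form.

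Poly(A) RNA from whole liver was sequenced in 15 female C57BL/6 mice, with 5 mice in each group and 1 library per mouse. Corn oil was given by daily gavage to the Adult mice (A1 to A5), aged 6 months at baseline, and to the Old mice (O1 to O5), aged 22 months at baseline, whereas the PDX mice (P1 to P5), also aged 22 months, received protectin DX, a lipid mediator derived from docosahexaenoic acid, at 30 ng per g of body weight in corn oil. Gavage followed the baseline tests, and livers were taken at the endpoint, when all mice were some months older. Gavage lasted 9 weeks by the treatment notes, and the design text of the series gives 8. Since PDX was given only to the aged mice, its comparison with Old asks about treatment in aged animals, its comparison with Adult combines age and treatment, and Old against Adult asks about age.

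Between 22424383 and 36070835 read pairs per mouse were counted on genes, and the members took 0.591% to 0.901% of them. Levels are given as CPM, the count relative to the size of its library after scaling with TMM factors. The 9 hepatocyte markers with a gene ID summed to between 83880 and 221600 CPM in a library. The sum was above the Adult range of 136400 to 150600 CPM in O1 and O4 (221600 and 190700). It was also above it in P1, P4 and P5 (162400, 183900 and 180800). The Old libraries O2 and O5 stood apart. In O2 the TMM factor was 1.33 against 0.885 to 1.08 in the other 14 mice, the 10 neutrophil markers summed to 270 CPM against 2.81 to 6.93 in Adult mice, the 5 leukocyte markers to 620 against 47.3 to 72.4, the 8 Kupffer cell and macrophage markers to 3759 against 503 to 760, and the hepatocyte markers to 83880, the lowest of all 15 mice, against 136400 to 150600. In O5 the 6 stellate cell markers summed to 839.7 CPM against 338 to 373, and the hepatocyte markers to 97050. The sums of neutrophil markers (20.4 to 270 CPM in Old and 43.02 to 202 CPM in PDX mice) and of leukocyte markers (75.1 to 620 and 114 to 240 CPM) were above the Adult range in all 10 aged mice, as were those of the 5 cholangiocyte markers (51.0 to 95.9 and 53.02 to 104 CPM against 37.7 to 50.9). Kupffer cell and macrophage markers were above it in all PDX mice (887 to 1847 CPM), and the 6 endothelial markers were below it in all Old mice (163 to 297 CPM against 316 to 343). The part of these differences in the results below was not tested. Values without O2, or without O2 and O5, are given where these mice moved the value of a named member by more than 1.5 times. They are not given for the assembly factors, regulators and other pathway genes. In bulk tissue, fewer cells of a type and less RNA per cell cannot be told apart.

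Of the 49 members, 43 passed the low-count filter and were tested: all 4 of complex II, all 9 of complex III, 13 of complex IV and 17 of complex V. The other 6 were Cox4i2, Cox6a2, Cox7b2, Cox8b, Cox8c and the second Atp5o ID. A log2 fold change is the fitted difference between group means on the log2 scale, with its standard error (SE), and a member was called when the adjusted p of edgeR's quasi-likelihood test over all 15808 tested genes was under 0.05.

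In Old compared with Adult livers, 40 of the 43 tested members had a lower mean, with a median log2 fold change of -0.37 against 0.07 over all genes tested. Only 3 of them passed the test, all lower in Old: Sdhb, Cox6c and Sdha. This is to be read against 2.07% of all tested genes called lower. At an unadjusted p under 0.05, 30 members were lower, where 9.81% of all genes were, and Atp5s was higher. The 5 Old mice all lay below the 5 Adult mice for 18 members, against 4.48% of all genes. For 0 members did they all lie above, against 3.65% of all genes. By complex, the median log2 fold change was -0.59 in complex II, -0.38 in complex III, -0.32 in complex IV and -0.35 in complex V. Without O2 and O5 these medians were -0.33, -0.17, -0.24 and -0.17. The differences between complexes were not tested.

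**Figure D1:**
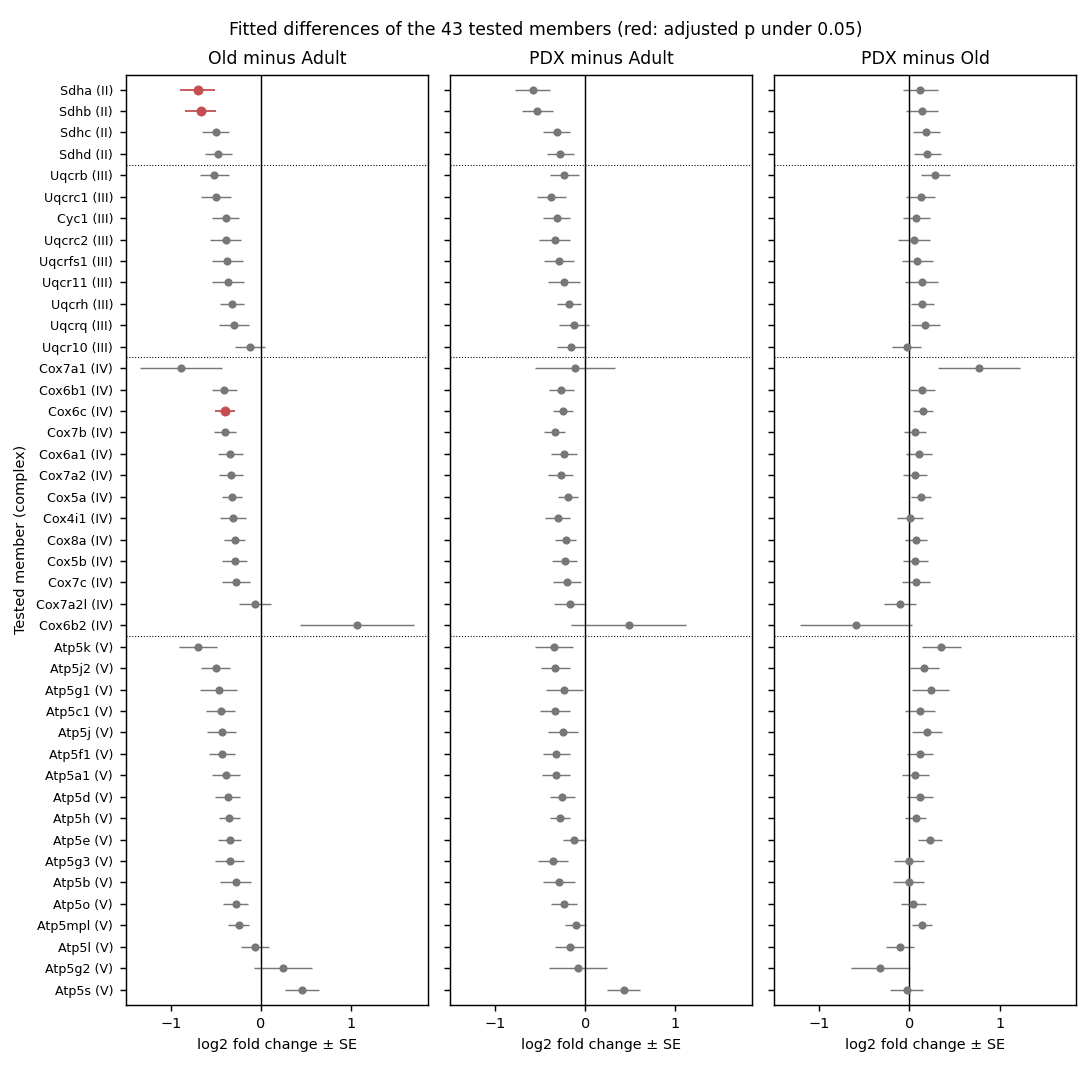
Fitted log2 fold change with its SE (horizontal bars) for each of the 43 tested members, grouped by complex, in 3 comparisons. In red are the members with an adjusted p under 0.05, which are Sdha, Sdhb and Cox6c in Old minus Adult and none in the other panels. In the first panel 40 of 43 points lie left of 0.

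Promoter sequence is shown for the complex II subunits called lower in Old, Sdha and Sdhb, and for Atp5k and Atp5g3, which carry a searched motif. Each stretch is the 250 bases before the RefSeq transcript start on GRCm38.p6, printed 5′ to 3′ on the strand of the gene, and capitals mark a motif. Sdha covers chr13:74350241-74350490 on the minus strand, Sdhb chr4:140961021-140961270 on the plus strand, Atp5k chr5:108434400-108434649 on the minus strand and Atp5g3 chr2:73911327-73911576 on the minus strand.
Sdha: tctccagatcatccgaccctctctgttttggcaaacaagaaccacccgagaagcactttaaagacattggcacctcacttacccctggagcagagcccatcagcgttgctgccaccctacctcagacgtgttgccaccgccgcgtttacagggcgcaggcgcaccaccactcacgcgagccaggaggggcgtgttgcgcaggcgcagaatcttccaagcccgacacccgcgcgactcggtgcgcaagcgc
Sdhb: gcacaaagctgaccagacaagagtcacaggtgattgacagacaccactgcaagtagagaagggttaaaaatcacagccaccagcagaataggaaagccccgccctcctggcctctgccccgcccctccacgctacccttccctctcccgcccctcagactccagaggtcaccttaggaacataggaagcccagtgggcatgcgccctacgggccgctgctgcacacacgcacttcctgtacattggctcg
Atp5k: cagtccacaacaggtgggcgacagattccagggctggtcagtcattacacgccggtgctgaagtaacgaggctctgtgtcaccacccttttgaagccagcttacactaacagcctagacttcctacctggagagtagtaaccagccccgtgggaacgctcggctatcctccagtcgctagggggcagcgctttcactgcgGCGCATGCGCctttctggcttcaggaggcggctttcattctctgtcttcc
Atp5g3: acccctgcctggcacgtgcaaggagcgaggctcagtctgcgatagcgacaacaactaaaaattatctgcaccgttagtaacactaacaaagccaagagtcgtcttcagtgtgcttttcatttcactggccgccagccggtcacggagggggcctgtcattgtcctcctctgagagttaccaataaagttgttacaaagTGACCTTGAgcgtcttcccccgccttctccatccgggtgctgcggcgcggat

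Short motifs of 4 factors were searched on both strands of the window from 250 bases before to 50 after the start, for the 36 member symbols with an entry. The NRF1 core GCGCATGCG, bound by a regulator of nuclear respiratory genes, was present in 6 of 36 (16.7%), which were Uqcrc1, Uqcr11, Cox6a1, Atp5k, Atp5l and Atp5g2, and in 1.95% of the 27025 genes with a promoter entry. In Atp5k the capitals hold a palindromic copy, so that the motif matches on both strands. The ERRalpha motif TCAAGGTCA was found in Sdhd and Atp5g3 (5.56%, all genes 0.466%), and in Atp5g3 it lies on the opposite strand. The YY1 motif AAGATGGCG was found in Atp5j and Atp5j2 (5.56%, all genes 1.64%) and the GABPA motif CCGGAAGTG in Uqcrh (2.78%, all genes 2.25%). None of the 4 sequences occurs in the window of Sdha or Sdhb. A match describes the letters of the window and is not a measured binding site.

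All 4 subunits of complex II were lower in every Old mouse than in any Adult mouse. Sdha encodes the flavoprotein that holds the succinate site. It reached 714, 737, 750.0, 726 and 728 CPM in A1 to A5 and 486, 297, 616, 553 and 294 CPM in O1 to O5. The lowest Old values were those of O2 and O5, but O1, O3 and O4 also lay below the lowest Adult mouse. Group means were 731 ± 13.6 and 449 ± 148 CPM (SD, n = 5 each), with a log2 fold change of -0.70 ± 0.20 (SE, edgeR adjusted p = 0.0444).

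Sdhb encodes the iron-sulfur subunit that relays the electrons. Its levels were 219, 253, 248, 243 and 227 CPM in the Adult mice and 173, 86.1, 191, 159 and 139 CPM in O1 to O5, again without overlap. The log2 fold change was -0.67 ± 0.17 (SE, edgeR adjusted p = 0.0349). Sdhc and Sdhd encode the membrane anchor that binds ubiquinone. Sdhc averaged 220.5 ± 12.4 CPM in Adult and 156 ± 37.1 CPM in Old mice, and Sdhd 212 ± 10.3 and 153 ± 36.02 CPM (SD, n = 5 each). Their log2 fold changes of -0.50 ± 0.15 and -0.47 ± 0.15 missed the threshold (SE, edgeR adjusted p = 0.0563 and 0.0650), although the groups did not overlap. Without O2 and O5 they were -0.26 for Sdhc and -0.24 for Sdhd. Sdhd had the smallest and Sdha the largest difference among the 4 subunits.

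**Figure D2:**
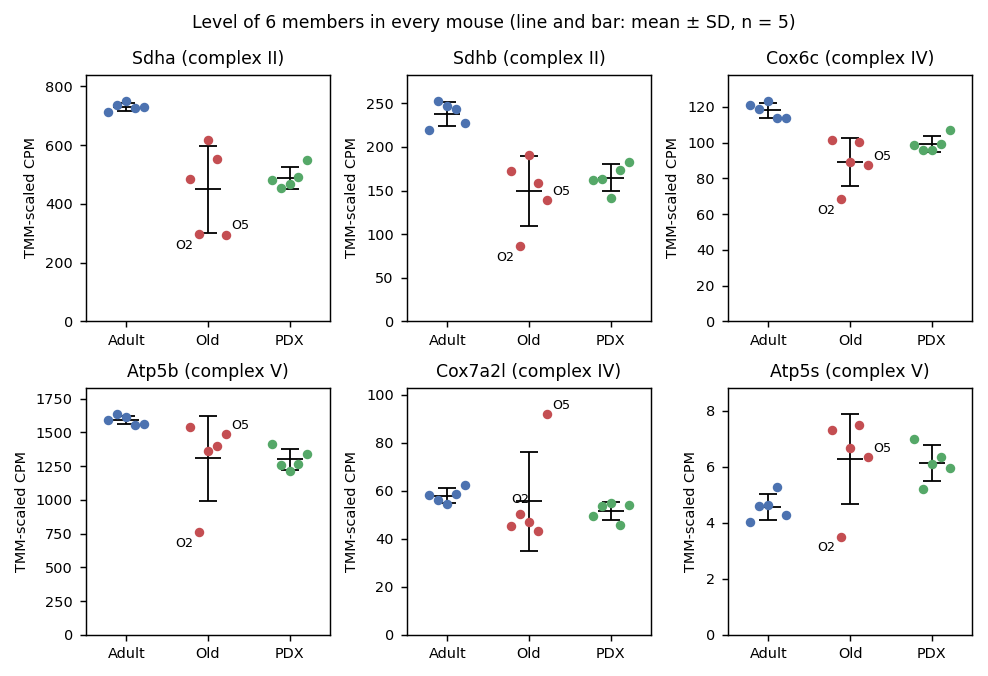
TMM-scaled CPM (vertical axes, from 0) of Sdha, Sdhb, Cox6c, Atp5b, Cox7a2l and Atp5s in each of the 15 mice, with the group mean and SD as line and bar and the Old mice O2 and O5 marked. For Sdha, Sdhb, Cox6c and Atp5b all Old and all PDX points lie below the Adult points, whereas O5 lies far above all others for Cox7a2l at 91.8 CPM.

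The calls of the 3 members were not stable to the choice of mice, genes, scaling or tool. All 3 calls were lost when any 1 Adult mouse was left out. All 3 were also lost in each of 3 separate fits, while their directions held. These were a fit of the Adult and Old mice alone, a fit without the low-count filter, and a fit with the replicate number as a block. Cox6c was also lost with limma, RLE factors and upper-quartile factors (adjusted p = 0.0532, 0.0530 and 0.0635), and Sdha with upper-quartile factors and without O1 (adjusted p = 0.0595 and 0.0501). Without O2 alone, Sdhb kept its call (-0.51, edgeR adjusted p = 0.0356), and Sdha (-0.57, edgeR adjusted p = 0.0820) and Cox6c (-0.31, edgeR adjusted p = 0.0776) lost it. Without O2 and O5 together, Sdha (-0.40, edgeR adjusted p = 0.0351) and Sdhb (-0.44, edgeR adjusted p = 0.0233) remained called and Cox6c did not (-0.27, edgeR adjusted p = 0.0557). In that fit 3 members were called lower, where 2.26% of all genes were, and the median over the members was -0.20. With the Wald test of DESeq2, the tool the study used, 15 members were called lower, where 3.86% of all genes with an adjusted p were.

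In complex III all 9 subunits had a lower mean in Old mice and 0 passed the adjusted threshold, whereas 6 had an unadjusted p under 0.05. Of the core proteins, Uqcrc1 had 304, 319, 317, 289 and 297 CPM in the Adult mice and 267, 129.6, 235, 242 and 206 CPM in O1 to O5, with a log2 fold change of -0.50 ± 0.16 (SE, edgeR adjusted p = 0.0677). The groups did not overlap for Uqcrc1, for Cyc1, which encodes cytochrome c1, and for Uqcrh, the hinge protein. Cyc1 differed by -0.39 ± 0.15 and the Rieske iron-sulfur subunit Uqcrfs1 by -0.38 ± 0.17 (SE, edgeR adjusted p = 0.105 and 0.167), and for Uqcrfs1 the value of O1, 204 CPM, lay within the Adult range. Without O2 the difference was -0.26 for Cyc1 and -0.21 for Uqcrfs1, and without O2 and O5 it was -0.29 for Uqcrc1, -0.22 for Cyc1 and -0.17 for Uqcrfs1. The largest difference in complex III was that of Uqcrb, a small subunit near the quinone site, with 39.7 to 49.8 CPM in Adult mice and 43.1, 23.6, 33.2, 35.8 and 21.0 CPM in O1 to O5 (-0.52 ± 0.16, SE, edgeR adjusted p = 0.0624), and it was -0.25 without O2 and O5. Uqcr10 had the smallest, at -0.12 ± 0.16 (SE, edgeR adjusted p = 0.657). For this subunit O5 stood highest of all 15 mice at 90.9 CPM while O2 had 41.4 CPM, so the Old mice spanned both sides of the Adult range of 63.3 to 75.6 CPM.

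In complex IV 12 of 13 tested members had a lower mean in Old mice and 1, Cox6c, was called. This small structural subunit read 121, 119, 123, 114 and 114 CPM in A1 to A5 and 102, 68.2, 89.2, 100.3 and 87.3 CPM in O1 to O5. All Old values lay below all Adult values, and the log2 fold change was -0.40 ± 0.11 (SE, edgeR adjusted p = 0.0438). Cox7b and Cox8a also showed no overlap, with log2 fold changes of -0.40 ± 0.12 and -0.29 ± 0.12 (SE, edgeR adjusted p = 0.0554 and 0.128). The difference of Cox8a was -0.19 without O2. Only unique alignments were counted, so pairs that match Cox6c and the processed pseudogene Cox6c2 equally well are missing from both. Cox6c2 was counted at 21.5 ± 2.19 CPM in Adult and 16.9 ± 2.47 CPM in Old mice (SD, n = 5 each).

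The isoform genes of complex IV showed the widely expressed form in every case. Per kilobase of exon, the Adult level was 269 CPM for Cox4i1 against 0.117 for Cox4i2, known from lung, and 236 for Cox6a1 against 0.137 for Cox6a2, the form of heart and skeletal muscle. Cox6b1 stood at 209 CPM per kilobase and the testis form Cox6b2 at 0.301. Cox8a had 196 CPM per kilobase against 0.312 for the muscle form Cox8b, and Cox7a2 had 98.4 against 4.13 for Cox7a1, also known from heart and muscle. Cox7b2 and Cox8c, both known from testis, had 0 counts in all 15 libraries. These forms kept the same order in the Old and PDX groups, where the abundant forms ranged from 78.2 to 217 CPM per kilobase and the rarer ones with counts from 0.160 to 3.804.

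Among the abundant forms, Cox4i1 differed by -0.31 ± 0.14, Cox6a1 by -0.34 ± 0.14, Cox6b1 by -0.41 ± 0.14 and Cox7a2 by -0.33 ± 0.14 between Old and Adult (SE, edgeR adjusted p = 0.173, 0.138, 0.0763 and 0.129). None of the 4 was called, and in each of them at least 1 Old mouse lay within the Adult range. Without O2 and O5 their differences were -0.28, -0.14, -0.20 and -0.15. The counts of the rarer forms were high in few libraries. Cox6b2 was counted 81 times in O2 and 4 to 19 times in each of the other 14 mice, so its fitted log2 fold change of 1.07 ± 0.63 (SE, edgeR adjusted p = 0.285) was -0.26 without O2. Cox6a2, not tested, was counted 50 times in O4, 29 in O2, 17 in P3, 10 in P5 and 9 in A3, and at most 3 times in any other mouse. The 7 skeletal muscle markers were also highest in these 5 libraries, with sums of 224 CPM in O4, 50.5 in O2, 26.8 in P3, 50.5 in P5 and 41.2 in A3, against 0.805 to 25.5 in the others. The muscle form Cox8b, also not tested, did not follow this order. It was counted 42 times in O1 and 20 in P1, where the muscle markers summed to 1.70 and 13.1 CPM. Its counts were 28 in O4, 20 in O2, 8 in P3, 9 in P5 and 3 in A3. Whether muscle tissue contributed to Cox6a2 or Cox8b was not tested.

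The Old mice differed widely among themselves in 2 Cox7a genes. Cox7a1 had 1.71, 2.18, 3.01, 1.65 and 2.50 CPM in Adult mice and 1.02, 0.878, 1.40, 2.53 and 0.144 CPM in O1 to O5, the last from 4 counts (-0.89 ± 0.45, SE, edgeR adjusted p = 0.213). Its difference was -1.36 without O4 and -0.40 without O2 and O5. Cox7a2l had 54.4 to 62.3 CPM in Adult mice. In O1 to O4 it lay below all Adult mice at 45.4, 50.4, 46.7 and 43.1 CPM, and in O5 above all of them at 91.8 CPM. The fitted difference was therefore small, -0.06 ± 0.18 (SE, edgeR adjusted p = 0.851), and was -0.32 with an edgeR adjusted p of 0.0269 without O5. Within each library the ratio of Cox7a2l to Cox7a2, computed after the values were seen, was 0.543 to 0.724 in Adult mice, 1.34 in O5, 0.973 in O2 and 0.487 to 0.621 in the other Old mice.

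In complex V 15 of 17 tested members had a lower mean in Old mice and 0 passed the adjusted threshold, while 12 of them had an unadjusted p under 0.05. The catalytic core is formed by Atp5a1 and Atp5b, the most abundant members per kilobase, with 398 and 376 CPM per kilobase in Adult mice. Atp5a1 had 1195, 1297, 1282, 1249 and 1212 CPM in A1 to A5 and 1019, 617, 1010.0, 1044 and 1059 CPM in O1 to O5 (-0.39 ± 0.16, SE, edgeR adjusted p = 0.117). Atp5b had 1556 to 1635 CPM in Adult mice and 1539, 760.4, 1360.0, 1399 and 1487 CPM in O1 to O5 (-0.28 ± 0.18, SE, edgeR adjusted p = 0.313). Neither gene overlapped between the groups, but O2 lay far below the 4 other Old mice in both. Without O2 the difference was -0.26 for Atp5a1 and -0.13 for Atp5b.

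The largest difference in complex V was that of Atp5k, subunit e of the membrane part, which takes part in dimer formation. It had 56.4, 69.2, 68.3, 60.8 and 62.0 CPM in the Adult and 50.7, 28.4, 47.5, 49.3 and 19.4 CPM in the Old mice, where O5 was lowest (-0.70 ± 0.22, SE, edgeR adjusted p = 0.0603), and without O2 and O5 the difference was -0.35. Atp5s, listed by RefSeq as Dmac2l, moved the other way. It is a member by the prefix of its symbol alone, and its values are not those of an established structural subunit. The 4.02, 4.62, 4.65, 5.27 and 4.28 CPM of Atp5s in Adult mice compare with 7.30, 3.51, 6.67, 7.50 and 6.35 CPM in O1 to O5, so that every Old mouse but O2 exceeded every Adult mouse. The log2 fold change was 0.46 ± 0.19 (SE, edgeR adjusted p = 0.129), and without O2 it was 0.62 with an edgeR adjusted p of 0.0252.

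The c-ring of ATP synthase is made from 3 genes that encode the same mature protein. Atp5g3 was by far the main one at 157 CPM per kilobase in Adult mice, against 11.2 for Atp5g1 and 0.679 for Atp5g2. Between Old and Adult, Atp5g3 differed by -0.35 ± 0.16, Atp5g1 by -0.47 ± 0.20 and Atp5g2 by 0.24 ± 0.32 (SE, edgeR adjusted p = 0.179, 0.152 and 0.667). Atp5g1 was low in O2 and O5, with 24.0 and 25.2 CPM against 45.1 to 53.3 CPM in the other Old mice, and its difference was -0.13 without them. The difference of Atp5g3 was -0.20 without O2. That of Atp5g2 was -0.02 when O5, with 2.24 CPM the highest of all mice, was left out.

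The size of the difference varied from mouse to mouse within the Old group. The median over the 43 members of the difference in log2 CPM from the Adult mean was -0.09 in O1, -0.89 in O2, -0.31 in O3, -0.22 in O4 and -0.43 in O5. In the Adult mice it ranged from -0.05 to 0.07. The median over all genes tested stayed between -0.01 and 0.02 in every mouse. O1 thus lay closest to the Adult mice, except in complex II, where its median was -0.36 against -0.04, -0.12 and -0.09 in complexes III, IV and V.

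**Figure D3:**
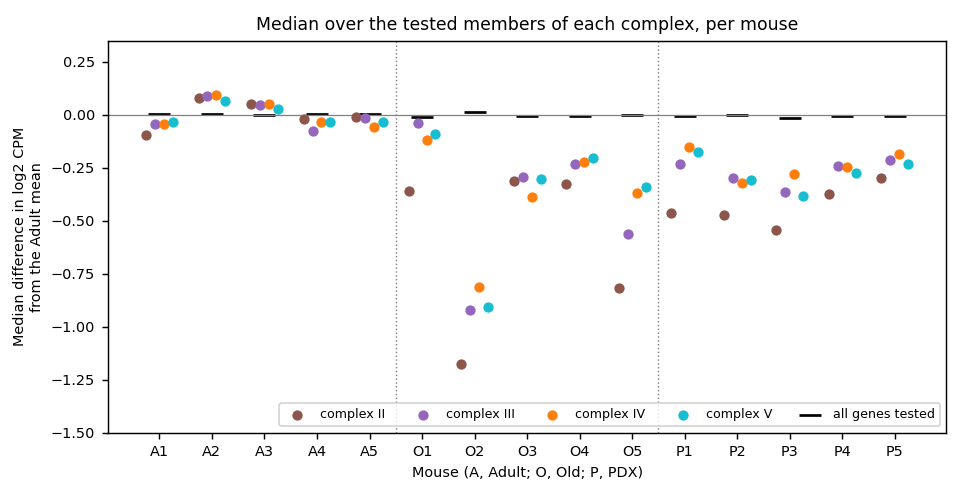
Median difference in log2 CPM from the Adult mean (vertical axis) over the tested members of each complex, for each mouse, with the median over all genes tested as a black dash. O2 is lowest in every complex, from -1.18 in complex II to -0.81 in complex IV, O5 spreads between complexes, and the 5 PDX mice lie between -0.54 and -0.15.

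O2 and O5 differed in pattern as well as size. O2 was the lowest of all 15 mice for 33 of the 43 members, and for 12.4% of all genes tested. O5 was lowest for 7 and highest for 5, which were Uqcr10, Cox7a2l, Cox7c, Atp5l and Atp5g2, and its members ranged from -3.37 to 0.95 around the Adult mean. Of all genes tested, O5 was lowest for 28.4% and highest for 25.9%. The labels give O2 a frailty index score of 0.11 with 3 positive frailty criteria and O5 a score of 0.56 with 4 criteria, where the other Old mice had scores of 0.17 to 0.33 and 1 to 4 criteria.

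**Figure D4:**
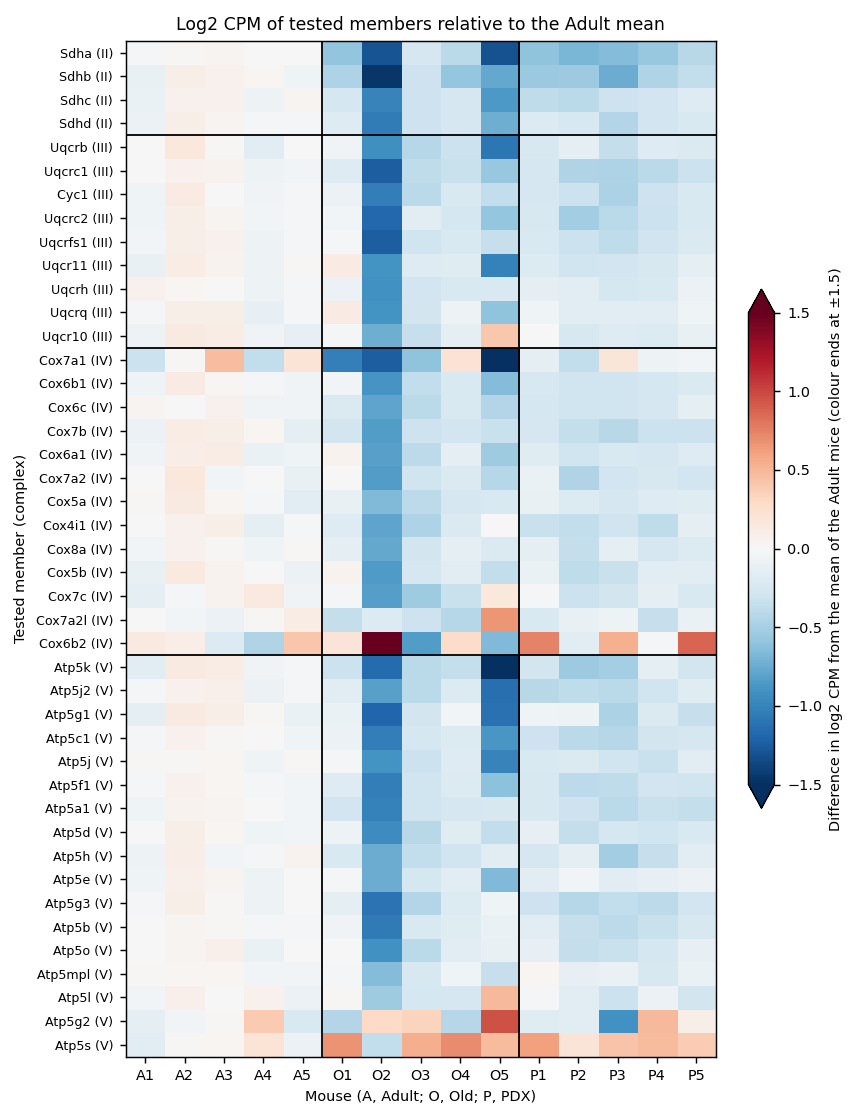
Difference in log2 CPM from the Adult mean for the 43 tested members (rows, by complex) in the 15 mice (columns), with blue for lower and red for higher and colours ending at ±1.5. O2 is blue in all rows except Cox6b2 and Atp5g2, O5 mixes dark blue rows such as Atp5k and Sdha with red rows such as Cox7a2l, and the PDX columns are mostly light blue.

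Counted against the range of the 5 Adult mice, 23 of 43 members were below it in O1, 41 in O2, 41 in O3, 38 in O4 and 35 in O5. In the PDX group the number was 30 in P1, 37 in P2, 39 in P3, 37 in P4 and 37 in P5. Over all genes tested, 23.8% to 39.4% were below that range in a mouse. Above the range were at most 3 members in any mouse except O5, where there were 6. All 4 complex II subunits were below the Adult range in each of the 10 aged mice.

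**Figure D5:**
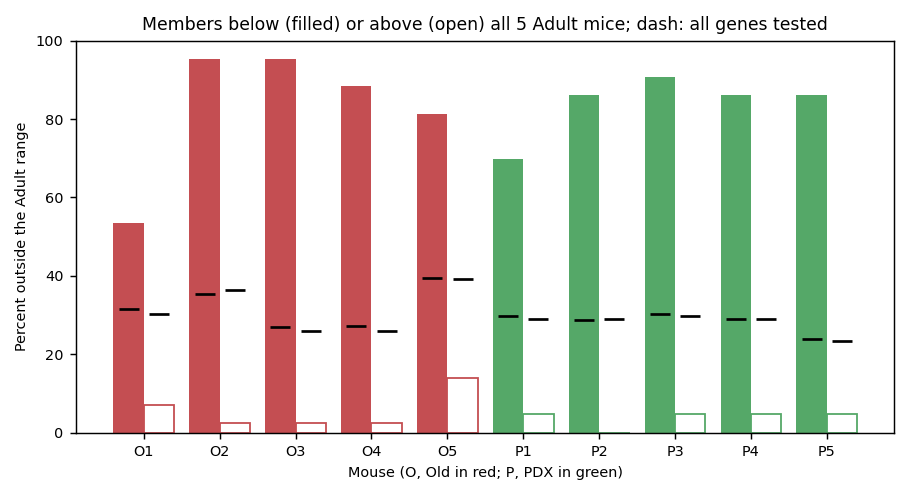
Percentage of the 43 tested members below (filled bars) or above (open bars) all 5 Adult mice, for each Old (red) and PDX (green) mouse, with the same percentage over all genes tested as a black dash. The filled bars run from 23 of 43 members in O1 to 41 of 43 in O2 and O3, and every one exceeds its dash.

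The spread within groups differed accordingly. The median SD of log2 CPM over the members was 0.0745 in Adult, 0.394 in Old and 0.0931 in PDX mice, against 0.205, 0.526 and 0.227 over all genes tested. The SD in Old exceeded that in Adult mice for 43 of 43 members and for 90.4% of all genes. Without O2 and O5 the median SD of the members in the 3 remaining Old mice was 0.136.

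Ratios between subunits inside a library do not depend on the scaling. These were chosen after the values were seen. The ratio of Sdha to Atp5b was 0.449 to 0.466 in Adult mice, 0.316, 0.390, 0.453, 0.395 and 0.198 in O1 to O5, and 0.339 to 0.409 in PDX mice. Only O3 reached the Adult range. The ratio of Sdhb to Atp5b was 0.138 to 0.156, 0.0936 to 0.141 and 0.114 to 0.137 in the Adult, Old and PDX groups. The summed level of complex II was 1402 ± 46.1 CPM in Adult, 907 ± 251 CPM in Old and 1005 ± 64.1 CPM in PDX mice, and that of complex V 4502 ± 127, 3520.0 ± 740.0 and 3659 ± 159 CPM (SD, n = 5 each). Summed over all 49 members, Adult mice had 8711 to 9370.0 CPM, Old mice 4451 to 8015 CPM and PDX mice 6863 to 7528 CPM, so that neither aged group overlapped the Adult group.

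Compared with Adult mice, PDX mice had a lower mean for 41 of 43 members, with a median log2 fold change of -0.25 against -0.01 over all genes. In the fit of all 15 mice 0 members were called, where 0.898% of all genes were called lower, and 9 members were lower at an unadjusted p under 0.05, where 9.41% of all genes were, while Atp5s was higher. The 5 PDX mice lay below the 5 Adult mice without overlap for 26 members, against 9.34% of all genes. The median was -0.42 in complex II, -0.23 in complexes III and IV and -0.25 in complex V.

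The lowest adjusted p-values were those of Sdhb and Sdha. Sdha had 481, 456, 467, 491 and 549.7 CPM in P1 to P5 (-0.58 ± 0.19, SE, edgeR adjusted p = 0.116) and Sdhb 162, 163, 142, 174 and 183 CPM (-0.53 ± 0.17, SE, edgeR adjusted p = 0.108). All of these values lay below all Adult values. In complex IV Cox6c had 95.7 to 107 CPM, below the 114 to 123 CPM of Adult mice (-0.25 ± 0.11, SE, edgeR adjusted p = 0.216). In complex V Atp5a1 had 1057, 1008, 946, 987 and 976 CPM (-0.33 ± 0.15, SE, edgeR adjusted p = 0.247) and Atp5b 1214 to 1418 CPM (-0.29 ± 0.18, SE, edgeR adjusted p = 0.363). Atp5s was again higher, at 5.22 to 6.98 CPM (0.42 ± 0.19, SE, edgeR adjusted p = 0.212).

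The number of calls in this comparison changed with the mice in the fit. With the Adult and PDX mice alone, 28 members were called lower, where 13.5% of all genes were, and Atp5s was called higher. With the fit of all mice except O2 and O5, 23 members were called lower, where 10.2% of all genes were, including all 4 subunits of complex II, and Atp5s was called higher. With DESeq2 on all 15 mice the called members were Sdha and Sdhb, where 2.85% of all genes with an adjusted p were called lower. The median over the members lay between -0.27 and -0.21 in these and all other alternatives, which include each fit without 1 mouse.

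Compared with Old mice, PDX mice had a higher mean for 35 of 43 members, with a median log2 fold change of 0.11 against -0.07 over all genes. Neither a member nor any other gene passed the test: 0 members were called, where 0.0% of all genes were called higher, and the lowest adjusted p of a member was 0.793, above the 0.25 that the study used for this comparison. At an unadjusted p under 0.05, 0 members were higher, where 1.04% of all genes were. DESeq2 also called 0 members, where 0.00344% of all genes with an adjusted p were called higher. For 0 members did all PDX mice lie above all Old mice, against 0.145% of all genes, and for 0 members did they all lie below, against 0.196%. The 5 PDX mice lay inside the range of the 5 Old mice for 34 of 43 members, as they did for 59.7% of all genes.

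Uqcrb, Atp5e and Cox7a1 had the smallest unadjusted p in the comparison of PDX with Old mice. Uqcrb had 37.8, 40.8, 34.8, 39.1 and 38.4 CPM in P1 to P5 (0.28 ± 0.16, SE, edgeR adjusted p = 0.793). Atp5e, the epsilon subunit of the catalytic part, had 94.0 to 103 CPM against 63.1 to 104 CPM in Old mice (0.23 ± 0.13, SE, edgeR adjusted p = 0.793), and Cox7a1 had 1.65 to 2.46 CPM (0.77 ± 0.45, SE, edgeR adjusted p = 0.793). In these 3 genes O2 and O5 were the lowest Old mice, and the other Old mice overlapped the PDX mice. Without O2 and O5 their differences were 0.04, 0.04 and 0.31. Sdha differed by 0.12 ± 0.19, Sdhb by 0.14 ± 0.17, Cox6c by 0.15 ± 0.11 and Atp5b by -0.01 ± 0.18 (SE, edgeR adjusted p = 0.877, 0.852, 0.793 and 0.990). Without O2 the difference was -0.0004 for Sdha, -0.011 for Sdhb, 0.065 for Cox6c and -0.16 for Atp5b. Without O2 and O5 it was -0.17 for Sdha, -0.08 for Sdhb, 0.04 for Cox6c and -0.13 for Atp5b.

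The small positive median between PDX and Old came with O2. Without O2 the median over the members was -0.01, and without O2 and O5 it was -0.04, with 14 of 43 members higher in PDX mice. Per mouse, the median difference from the Adult mean was -0.21, -0.32, -0.33, -0.26 and -0.20 in P1 to P5, which lies between the values of O1 and O5. No single member differed between PDX and Old beyond the spread between these mice, and a shift of the members as a set was not tested.

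Other genes of the same pathway were taken from lists set with earlier results of these data known. Of 38 tested assembly factors of complexes II to V, 1 was called lower in Old and in PDX compared with Adult mice, with medians of -0.22 and -0.12 over the list. Of all genes, 2.07% and 0.898% were called lower in these comparisons. It was Sco2, a copper chaperone of complex IV, with 33.0, 34.8, 39.7, 30.3 and 34.4 CPM in Adult, 14.1, 6.76, 13.3, 13.4 and 17.6 CPM in Old and 9.59, 10.5, 12.6, 14.01 and 14.5 CPM in PDX mice. The Adult group did not overlap either aged group, with log2 fold changes of -1.40 ± 0.20 for Old and -1.49 ± 0.20 for PDX (SE, edgeR adjusted p = 0.00372 and 0.00152). This value is uncertain, since 68.3% of the exonic bases of Sco2 are also exonic in Tymp on the same strand. Among the members, 2 tested genes share exonic bases on their own strand, Atp5o with its second ID and Atp5g2 with a microRNA.

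Of 15 tested regulators of nuclear mitochondrial genes, such as Nrf1, Gabpa, Esrra, Ppargc1a and Tfam, 0 were called in any of the 3 comparisons. Their median log2 fold change was 0.01 between Old and Adult and -0.25 between PDX and Adult. Between PDX and Old it was -0.23, with 13 of 15 lower in PDX mice (all genes -0.07, 59.9% lower). For several regulators O5 was the highest of all 15 mice. It had 93.8 CPM for Esrra (the other Old mice 27.1 to 34.9) and 61.1 for Pprc1 (8.56 to 23.3). For Ppargc1a it had 36.2 CPM (the other Old mice 3.25 to 9.35). For Esrrg O5 was the lowest, at 0.0361 CPM. Medians of this list without O2 or O5 are not given. Tfam had 47.5 to 54.5 CPM in Adult, 30.0 to 46.5 in Old and 36.8 to 45.2 in PDX mice, and neither overlapped Adult. The lowest Old values of Tfam were those of O2 and O5, 30.0 and 37.2 CPM. Its log2 fold changes were -0.34 ± 0.12 for Old and for PDX (SE, edgeR adjusted p = 0.0812 and 0.121). Of the 15 regulators, 1 and 4 lay wholly below Adult in Old and PDX mice (all genes 4.48% and 9.34%). Of the 3 tested genes in the list of cytochrome c, the ATP synthase inhibitor and Ndufa4, an associated subunit of complex IV, 0 were called, and their median was -0.16 between Old and Adult. Ndufa4 had 208 to 232 CPM in Adult, 120 to 189 in Old and 159 to 185 in PDX mice, and neither overlapped Adult. Its log2 fold changes were -0.42 ± 0.12 for Old and -0.34 ± 0.12 for PDX (SE, edgeR adjusted p = 0.0551 and 0.140). Between Old and Adult, Cycs differed by -0.10 and Atpif1 by -0.16. Complex I subunits showed values close to those of the members between Old and Adult, with 2 of 37 called lower (all genes 2.07%) and a median of -0.36 (all genes 0.07), and with 0 called and a median of -0.22 between PDX and Adult.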

How the data were processed

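Liver mRNA was sequenced in 15 mice as paired ends from strand-specific poly(A) libraries. The authors aligned reads to mm10 with STAR (version 2.6.0c) and deposited counts of unique proper pairs per non-mitochondrial gene, made with featureCounts (Subread 1.6.2) on Ensembl 100, without normalization. They also deposited log2-scale values that DESeq2 (version 1.23.10) had variance stabilized. Symbols and coordinates come from GENCODE M21 (GRCm38, the assembly of mm10), promoters from RefSeq (GRCm38.p6).

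Genes with low counts were removed by edgeR's filterByExpr with the groups given (at least 10 counts, total of at least 15), and the rest were scaled with TMM factors and fitted for all 15 mice with edgeR (version 4.0.16) in R 4.3.3, with 1 coefficient per group and Benjamini-Hochberg adjustment over 15808 genes. SEs are the log2 fold change divided by the square root of F. CPM were computed with these factors, and log2 CPM with a prior count of 2. Descriptions were computed in Python 3.11.15, and the fits were tested on simulated data. Depth was 22424383 to 36070835 counted pairs per mouse. Every table column has a sample label.

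Alternatives were the DESeq2 Wald test (version 1.42.0), limma (version 3.58.1) on the deposited log2 values, other scalings, no filter, 2 groups only, a replicate block, and fits without each mouse and without O2 and O5. Named genes are the called members, the extremes of each complex, isoform genes, core subunits and the 3 lowest p-values between PDX and Old, with others named where counts needed them. Members, lists and tests were chosen with earlier results of these data known. Same-numbered mice are different animals, and euthanasia batches are not given per mouse in the sources used here.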

Additional observations from a re-analysis of the deposited data

Results flagged for a closer look

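A group here is 1 tested named gene in the Adult, Old or PDX mice. Of 78 such groups of 5 mice, 7 held 1 mouse apart from the other 4. Chance marks about 1 in 20 separate groups. That rate cannot be set against this count, because the same mice recur for every gene. Some of the genes were also named for their values in these data. All 7 groups were in the Old mice, and the mouse apart was O2 or O5. O2 was the low mouse for Atp5a1 (617 CPM, the others 1010.0 to 1059), Atp5b (760.4 CPM, the others 1360.0 to 1539), Cox7b (78.3 CPM, the others 111 to 116), Cox8a (70.8 CPM, the others 100.4 to 109) and Atp5s (3.51 CPM, the others 6.35 to 7.50). It was the high mouse for Cox6b2 (2.37 CPM, the others 0.151 to 0.409). O5 was the high mouse for Cox7a2l (91.8 CPM, the others 43.1 to 50.4).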

How the results depend on the processing

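Between Old and Adult, the number of members called (3) was 15 with DESeq2, 12 with library totals only, 1 with upper-quartile factors, and 0 without the low-count filter, with 2 groups only and with the replicate block. Without 1 mouse it ranged from 0 (any Adult mouse) to 9 (O1), and was 8 without O5, 7 without O3 or O4 and 2 (Sdhb lower, Atp5s higher) without O2. The median log2 fold change kept its direction, from -0.42 without O1 to -0.25 without O2 and -0.20 without O2 and O5. Between PDX and Adult, the number (0) was 2 with DESeq2, 1 with library totals only, 29 with 2 groups only and 24 without O2 and O5, and 0 without any 1 mouse. Between PDX and Old it was 0 throughout, while the median of 0.11 ranged from -0.01 (without O2) to 0.17 (without O1) and was -0.04 without O2 and O5. Library totals moved the median of all genes to 0.16 between Old and Adult and to -0.16 between PDX and Old. Directions turned between Old and Adult for Cox6b2 (-0.26 without O2, 1.32 without O3, -0.10 without O2 and O5), Cox7a2l (0.0327 with library totals, and from -0.3225 without O5 to 0.0256 without O1, also 0.0124 without O4), Uqcr10 (-0.2919 without O5 to 0.0044 without O2) and Atp5g2 (-0.0242 without O5 to 0.3954 without O1, -0.14 without O2 and O5). Between PDX and Adult they turned for Cox7a1 (-0.2062 without A4 to 0.0161 without A3) and Atp5g2 (-0.2754 without P4 to 0.0797 without P3, 0.0346 without A4). The causes were not tested. Under the replicate block the medians were -0.39, 0.13 and -0.25 for Old with Adult, PDX with Old and PDX with Adult. The numbers do not pair the mice: same-numbered deviations correlated at a mean of -0.17, 0.09 and 0.03.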
